A study of Mus musculus with 16 samples.

Results

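J1 mouse embryonic stem cells (mESCs) cultured in 2i (J1-2i) were compared with TKO mESCs cultured in serum (TKO-serum). The comparison used the 3 arrays whose titles name J1 in 2i and the 2 arrays whose titles name TKO in serum, 5 of the 16 arrays of the series. The series measured total RNA of 3 mESC lines, each in serum and in 2i, on one-colour (Cy3) Agilent expression arrays with 1 array per sample. The other 11 arrays, J1-serum, TKO-2i and both media of the line labelled 3B3-3l among them, entered the same statistical model. J1-serum and TKO-2i, and for some genes 3B3-3l, are given beside single results. J1 is a wild-type (WT) male line. TKO cells derive from J1 and lack functional Dnmt1, Dnmt3a and Dnmt3b, so they have no DNA methyltransferase able to maintain or place CpG methylation. J1-2i cells were kept for 2 weeks in serum-free N2B27 medium with the MEK inhibitor PD0325901 at 1 µM, the GSK3 inhibitor CHIR99021 at 3 µM and LIF at 1000 U/ml, and TKO-serum cells in DMEM with fetal calf serum and LIF at 500 U/ml. Both groups were grown without feeder cells on gelatin, whereas J1-serum cells grew on inactivated SNLP feeders. Line and medium differ together between J1-2i and TKO-serum, and their parts cannot be told apart in this contrast alone. The labels do not say whether the arrays of a group came from separate cultures, so the p values measure only the spread between these arrays.

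Culture in 2i lowers DNA methylation in mESCs, and TKO cells lack the enzymes that place it. Dnmt1, with its partner Uhrf1, copies methylation onto newly made DNA, whereas Dnmt3a and Dnmt3b, helped by the inactive cofactor Dnmt3l, place it on unmethylated DNA. In 2i the de novo enzymes are turned down while signalling through MEK/ERK is blocked and β-catenin is stabilised, a state known as naive or ground-state pluripotency. The comparison sets hypomethylation reached through the medium against absence of the enzymes, and it asks which genes differ between the 2 states. Methylation was not measured on these arrays.

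Levels are log2 processed signal minus the 75th percentile of the same array, so 0 is the array's 75th percentile and a level is compared between arrays for 1 probe, never between genes. In each set of values below, J1-2i replicates 1 to 3 come first and TKO-serum replicates 1 and 2 follow. Differences are J1-2i minus TKO-serum with the standard error (SE) of the limma model. Genes whose adjusted p did not exceed 0.05 and whose difference reached 2-fold were called. Where a group was not well above background on any of its arrays, or was saturated, the fold is a bound, written "at least". The 75th percentile ranged from 1041 to 1476 intensity units on the 5 arrays, where 42.07% to 48.96% of spots were well above background. J1-2i replicates 1 and 3 and both TKO-serum replicates were on slide 1, and J1-2i replicate 2 was on slide 3. Over all probes, mean correlations were 0.988 within J1-2i, 0.981 within TKO-serum and 0.905 between them. All 8 markers of embryonic stem cells were tested and well above background on all 5 arrays, with a summed linear level of 256.3 to 334.2 times the 75th percentile in J1-2i and 298.9 to 327.7 in TKO-serum. The brightest markers dominate these sums, some of them saturated, and of the 8 markers Lin28a and Utf1 were called lower in J1-2i, at -2.47 and -1.63, and none higher.

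J1-2i cells had more transcript of Dnmt1 and Dnmt3a, of the naive pluripotency factors Tfcp2l1 and Tbx3, and of 9 lipid, 5 betaine and 6 amino acid stress genes. Of the 15 naive factors tested, Klf4 was also higher, Gbx2 and Sall4 were lower and 10 were not called. TKO-serum cells had more transcript of primed pluripotency and ERK target genes, of contractile genes, of many imprinted genes and of X-linked Mage, Xlr and Rhox genes. Dazl and Fkbp6, germline genes known to be held silent by promoter methylation, were high in both. Of 13883 genes tested, 1588 were higher and 1935 lower in J1-2i, with 18 genes counted in both directions through separate probes. These are 11.4% and 13.9% of the genes tested, and 25.2% were called in either direction. With 1 probe per gene, the brightest by its mean across the 16 arrays, 10.3% were higher and 12.3% lower, 22.6% in all, and the median difference over all genes was 0.03. All gene lists below are read against these last shares. Of the tested probes without a gene name, 20.8% were called. The arrays of the groups did not overlap for 68.1% of the genes, called or not.

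**Figure D1:**
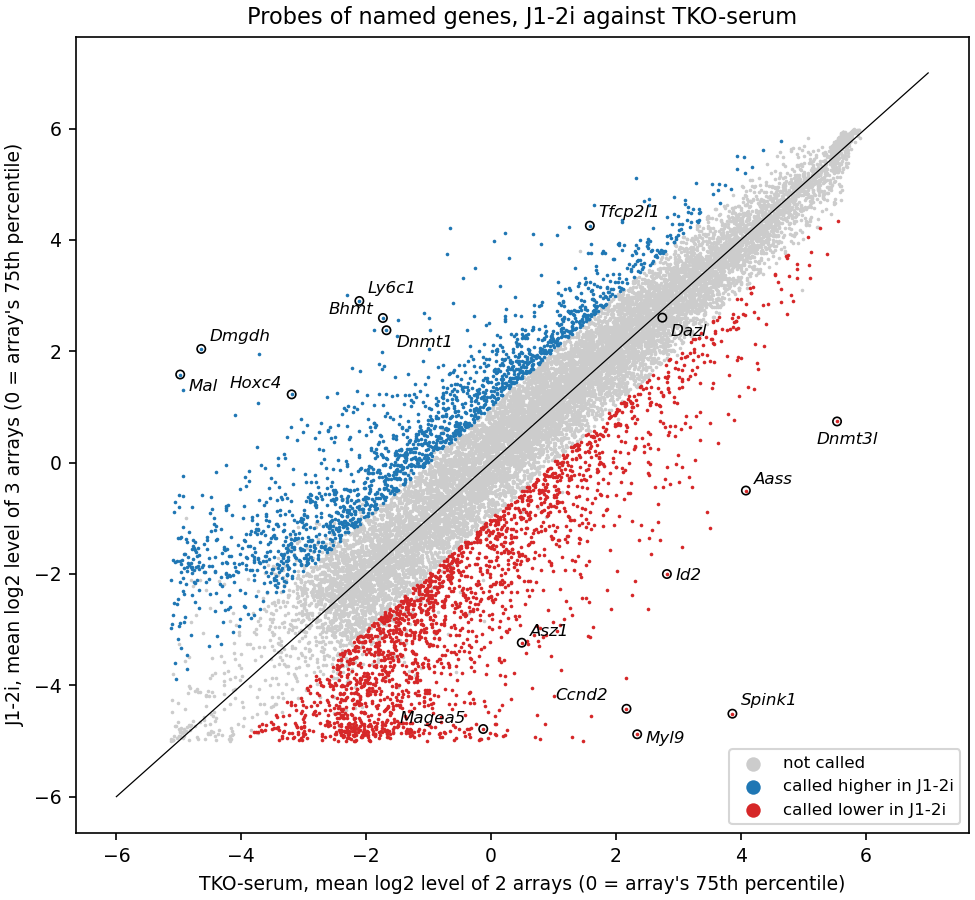
Mean log2 level of each tested probe with a gene name in TKO-serum (horizontal axis, 2 arrays) and J1-2i (vertical axis, 3 arrays), where 0 is the array's 75th percentile and the line marks equal levels. Blue and red points were called higher or lower in J1-2i, and circles mark named genes, with Dnmt1 and Ly6c1 far above the line, Id2, Aass and Dnmt3l far below it and Dazl close to it.

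The largest difference upwards among genes measured on all 5 arrays was that of Ly6c1, a GPI-anchored surface antigen. Its levels were 3.02, 2.83 and 2.86 in J1-2i and -2.36 and -1.86 in TKO-serum, a difference of 5.01 ± 0.16 (SE, adjusted p = 6.9e-10), or 32.3-fold. Crxos, a homeobox gene, differed by 4.86 ± 0.19, and Pla1a, a phospholipase, by 4.46 ± 0.15. The other genes of the upper 12 were Bhmt, Ccdc68, Dnmt1, Cpe, Meis2, Spic, Aldh1l1, Xaf1 and Fam53b, with differences from 4.33 down to 3.73. No array of one group reached the range of the other for any of the 12, which the rule for naming them required. Dmgdh, Mal, Dclk3 and Hoxc4 were above background in J1-2i and not in TKO-serum, by at least 48.1-fold, 35.0-fold, 23.3-fold and 21.4-fold, and were also above background on all 3 TKO-2i arrays. Mal, a raft protein of myelin and lymphocytes, had levels of 1.57, 1.47 and 1.72 against -4.91 and -5.05 (adjusted p = 4.0e-11), with TKO-2i at 0.06 ± 0.20 (SD, n = 3).

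Among genes above background in both groups, the largest difference downwards was that of Id2, an inhibitor of basic helix-loop-helix factors. Its levels were -2.01, -1.81 and -2.18 in J1-2i and 3.08 and 2.55 in TKO-serum, a difference of -4.82 ± 0.22 (adjusted p = 6.2e-09). Aass, the first enzyme of lysine breakdown, stood at -0.55, -0.58 and -0.38 against 4.02 and 4.14, and S100a6, a calcium-binding protein, also differed by -4.58. The rest of the lower 12 held Pou3f1, Col18a1, Cldn6, Myc, Gap43, Basp1, Tagln, Crmp1 and Orai2, from -4.43 to -3.65. Orai2 had an SE of 0.77 against 0.13 to 0.28 for the others of the lower 12, and its other probe, at -0.85 ± 0.77 (adjusted p = 0.42), was not called. Below background in J1-2i and well above it in TKO-serum were Spink1, a protease inhibitor, at least 155-fold lower in J1-2i, Myl9 at least 54.0-fold, Ccnd2 at least 48.0-fold and Fgf15 at least 47.8-fold. Spink1 stood at -4.53, -3.83 and -5.17 in J1-2i against 3.93 and 3.80 in TKO-serum.

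The genes targeted in TKO cells were measured as a check of the labels. Dnmt1 levels were 2.32, 2.36 and 2.45 in J1-2i and -1.70 and -1.65 in TKO-serum, a difference of 4.05 ± 0.12 (adjusted p = 3.8e-10) or 16.6-fold. Dnmt3a stood at -0.95, -0.84 and -0.61 in J1-2i and was not well above background in TKO-serum, at -4.86 and -5.14, so it was at least 6.70-fold higher in J1-2i (adjusted p = 1.5e-09). Dnmt3b differed least, with 0.68, 0.56 and 0.65 against -0.25 and -0.44 by its brightest probe, a difference of 0.97 ± 0.13 that passed the adjusted p (4.4e-05) but not the 2-fold limit. Its other probes gave 1.53 ± 0.21 and 1.69 ± 0.15 and were called. All 3 targeted genes were lower on both TKO-serum arrays than on any J1-2i array. Where the probes lie relative to the deleted parts of the genes was not analysed here. In J1-serum the brightest Dnmt3b probe stood at 2.96 ± 0.09 (SD, n = 4), above J1-2i, while Dnmt1 stood at 1.81 ± 0.14, below J1-2i.

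Dnmt3l, the cofactor of de novo methylation, ran the other way. Its levels were 0.73, 0.80 and 0.69 in J1-2i, against 5.51 and 5.57 in TKO-serum, where the spots were saturated on both arrays, so it was at least 27.9-fold lower in J1-2i (adjusted p = 5.2e-10). In TKO-2i Dnmt3l stood at 2.94 ± 0.17 (SD, n = 3), between the 2 groups. Prdm14, a transcription factor that holds the de novo enzymes down, was at 2.89, 2.77 and 2.95 against 1.00 and 1.19, a difference of 1.78 ± 0.12 (adjusted p = 1.1e-07). Its TKO-2i level of 2.66 ± 0.09 was not called different from J1-2i (0.21, adjusted p = 0.16). Uhrf1, which brings Dnmt1 to hemimethylated DNA, was at 4.68, 4.42 and 4.55 against 3.60 and 3.57, and its difference of 0.97 ± 0.12 passed the adjusted p (3.2e-05) but not the 2-fold limit.

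Of 11 methyltransferase and maintenance genes tested, 2 were higher (Dnmt1, Dnmt3a), 1 was lower (Dnmt3l) and 8 were not called, with a median of 0.11. Of 13 demethylation genes, Prdm14 was higher and Gadd45g and Gadd45a, stress proteins proposed to act in DNA demethylation, were lower, by 2.70 and 1.11 on the log2 scale. Under array median scaling Gadd45a differed by -0.99 and was not called. The TET enzymes, which oxidise methylcytosine, differed by less than 2-fold. Tet1 was at 3.05, 2.98 and 3.50 against 3.97 and 3.67, a difference of -0.64 ± 0.15 (adjusted p = 0.0032), and Tet2 ran the opposite way with 0.76 ± 0.16 (adjusted p = 0.0018). Among 7 readers of methyl-CpG, 2 were higher and none was lower, with Zbtb4 at least 3.35-fold higher. None of 14 genes of H3K9 methylation and heterochromatin was called by limma at the 2-fold limit, and 5 of them passed the adjusted p alone. Of 22 Polycomb genes, 1 was higher, 1 was lower (Phc1, at -1.51 ± 0.16) and 20 were not called.

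**Figure D2:**
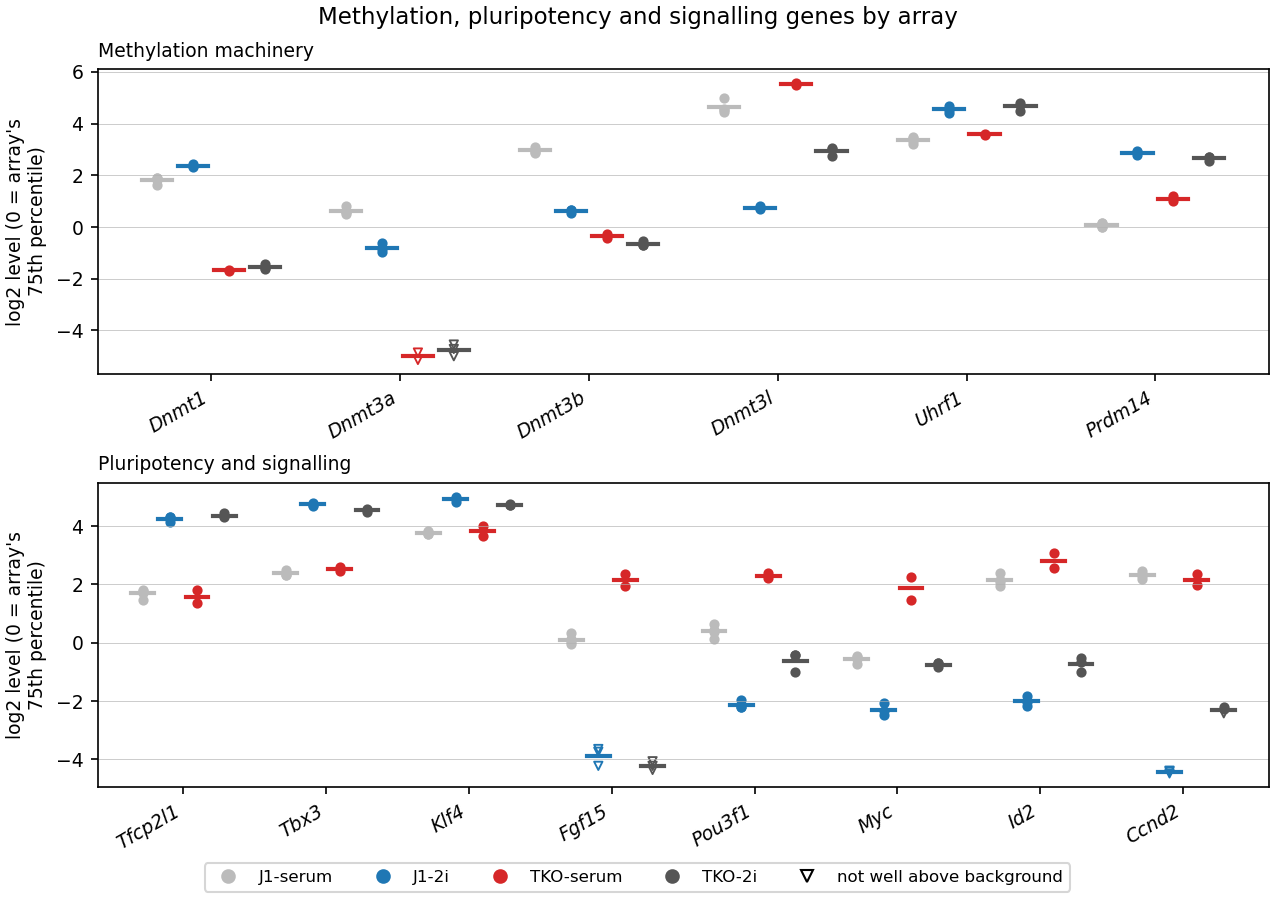
Log2 level on each array (vertical axis, 0 is the array's 75th percentile) for genes of the methylation machinery (upper panel) and of pluripotency and signalling (lower panel), by 1 probe per gene, in J1-serum, J1-2i, TKO-serum and TKO-2i, with bars at group means and open triangles for spots not well above background. Dnmt1 is high in both J1 groups and low in both TKO groups, while Tfcp2l1, Tbx3 and Klf4 are higher in both 2i groups than in both serum groups.

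The core pluripotency factors Nanog, Pou5f1 and Sox2 were not called. Nanog was at 5.85, 5.50 and 5.35 against 5.47 and 5.55, and Pou5f1 at 5.84 ± 0.23 (SD, n = 3) against 5.74 ± 0.10 (SD, n = 2), both saturated on 2 arrays of each group, so a difference in either could not be measured. Sox2, which was not saturated, differed by 0.29 (95% interval -0.11 to 0.68). Of 15 naive pluripotency factors tested, 3 were higher in J1-2i, 2 were lower and 10 were not called, with a median of 0.29. Tfcp2l1, a driver of naive self-renewal, was at 4.31, 4.30 and 4.16 against 1.80 and 1.37 (2.67 ± 0.16, adjusted p = 5.6e-08). Tbx3, a T-box factor of the same network, was at 4.80, 4.69 and 4.74 against 2.60 and 2.47 (2.21 ± 0.12). Klf4, a Krüppel-like factor, differed by 1.08 ± 0.14, close to the 2-fold limit, and was not called without TKO-serum replicate 2, at 0.91. The 3 genes had their J1-2i arrays above both TKO-serum arrays, and none was called between J1-2i and TKO-2i, where the differences were -0.11, 0.19 and 0.19.

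Gbx2, a homeobox gene counted with the naive factors, was lower in J1-2i. Its levels were -0.51, -0.80 and -0.67 in J1-2i and 2.42 and 1.83 in TKO-serum, a difference of -2.79 ± 0.17 (adjusted p = 6.3e-08). J1-serum stood at -0.36 ± 0.13 (SD, n = 4) and TKO-2i at 1.26 ± 0.12 (SD, n = 3), so the levels of both TKO groups were above those of both J1 groups. Above both J1 groups as well was the 3B3-3l line, at 1.91 ± 0.11 (SD, n = 2) in serum and 2.23 ± 0.20 in 2i. That line lacks its own Dnmt3a and Dnmt3b and expresses added Dnmt3b and Dnmt3l. Sall4, a zinc-finger factor, was called at -1.01 ± 0.19, at the edge of the 2-fold limit, and the call was lost without J1-2i replicate 2 (-0.90) and without TKO-serum replicate 1 (-0.74). Lin28a, an RNA-binding protein that blocks let-7, was at 1.98, 1.60 and 1.78 against 4.27 and 4.25, a difference of -2.47 ± 0.23.

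Formative and primed pluripotency genes were lower in J1-2i. Of 16 tested, 10 were lower, none was higher and 6 were not called, with a median of -2.31 against 0.03 over all genes. Fgf15 was at 1.95 and 2.37 in TKO-serum and not above background in J1-2i (adjusted p = 6.9e-10). Pou3f1, a POU factor of the formative epiblast, was at -2.20, -1.96 and -2.21 against 2.40 and 2.21 (-4.43 ± 0.21). Fgf5, the classical epiblast marker, was at -1.91 and -2.01 in TKO-serum and below background in J1-2i, at least 2.74-fold lower, and it was also below background on every array of J1-serum and TKO-2i. Sox3 was above background on 2 of 3 J1-2i arrays and differed by -3.13 ± 0.15, and Sox4 differed by -2.77 ± 0.21. Otx2 and Nodal did not follow. Otx2 was at 3.63, 3.63 and 3.69 against 3.91 and 4.01 (-0.31, 95% interval -0.58 to -0.04, adjusted p = 0.062) and Nodal differed by 0.01 (-0.31 to 0.33). Lefty2, a Nodal target and antagonist, differed by 0.07 (-0.16 to 0.30).

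Feedback and immediate early genes of the ERK pathway, the pathway PD0325901 blocks, were lower in J1-2i. Of 20 tested, 10 were lower, none was higher and 10 were not called, with a median of -1.01. Without TKO-serum replicate 2 the median was -1.56 and 12 were lower. Spry4, a feedback inhibitor, was not above background in J1-2i and was at 1.40 and 0.18 in TKO-serum, at least 18.5-fold lower. Myc was at -2.08, -2.47 and -2.33 against 2.26 and 1.46 (-4.16 ± 0.19, adjusted p = 6.9e-09). Egr1 was at -1.03, -0.85 and -1.47 against 2.75 and 2.05 (-3.52 ± 0.39). The groups were far apart for all 3, although the TKO-serum arrays differed among themselves by 0.70 to 1.22. The phosphatase genes Dusp5 and Dusp4 were below background in J1-2i, by at least 3.04-fold and 5.25-fold. Etv5, an ETS factor, was at 5.36, 5.20 and 5.13 against 5.22 and 5.35, a difference of -0.06 (-0.29 to 0.17). Spry2 differed by 0.32 (-0.17 to 0.80).

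Targets of Wnt/β-catenin signalling, which CHIR99021 raises, were split. Of 11 tested, 3 were higher and 3 lower. Cdx1, a homeobox gene, was at 1.34, 1.19 and 1.36 against -2.11 and -2.19 (3.44 ± 0.23, adjusted p = 1.6e-07), and Axin2, the general feedback target, at -1.04, -1.37 and -1.16 against a TKO-serum signal not above background (at least 5.11-fold higher). Tnfrsf19 was higher at 1.15 ± 0.10, but was not called under normexp background correction, at 0.94. Lef1, Dkk1 and Nkd1 were below background in J1-2i and were at least 4.51-fold, 2.16-fold and 3.60-fold lower. Sp5, a direct target, stood at 0.11, -0.30 and -0.35 against -0.37 and -0.26 (0.14, 95% interval -0.26 to 0.53). Sp5 levels were -1.82 ± 0.22 (SD, n = 4) in J1-serum and 3.02 ± 0.04 (SD, n = 3) in TKO-2i, so J1-2i and TKO-serum overlapped between a lower and a higher group. T and Cdx2, the markers of mesoderm and of trophoblast or posterior cells, were not above background on any of the 5 arrays.

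Of 10 Id genes and BMP targets, 5 were lower and 1 higher. Id1 was at -0.50, -0.70 and -1.05 against 2.65 and 2.69 (-3.42 ± 0.16) and Id3 at 1.27, 1.41 and 0.52 against 3.00 and 2.96 (-1.92 ± 0.29). Id4 ran the other way, at 1.40, 1.35 and 1.41 against -0.68 and -0.62 (2.04 ± 0.13). Bmp4, the ligand, differed by -0.03 ± 0.16.

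Germline genes were more often lower than higher in J1-2i. Of 28 tested, 13 were lower, 2 were higher and 13 were not called, with a median of -0.78. Dazl, an RNA-binding protein of germ cells, was at 2.53, 2.39 and 2.88 in J1-2i and 3.00 and 2.49 in TKO-serum. Its difference was -0.14 (95% interval -0.62 to 0.34, adjusted p = 0.65), and the groups overlapped. J1-serum stood at 0.42 ± 0.32 (SD, n = 4) and TKO-2i at 3.89 ± 0.09 (SD, n = 3). Fkbp6, a piRNA pathway protein, was at 2.08, 2.15 and 2.02 against 2.24 and 2.80, with a difference of -0.43 (-0.77 to -0.09, adjusted p = 0.041) inside the 2-fold limit. Its level was -0.34 ± 0.09 in J1-serum and 3.34 ± 0.15 in TKO-2i. Both genes were thus above J1-serum in both groups, with Dazl called at 2.19 in J1-2i and 2.33 in TKO-serum and Fkbp6 at 2.42 and 2.86, comparisons that share the J1-serum arrays.

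Asz1, which anchors the piRNA machinery to mitochondria, differed strongly. It was at 0.30 and 0.69 in TKO-serum and not well above background in J1-2i (-3.70, -2.80 and -3.21), at least 11.9-fold lower (adjusted p = 1.0e-07). In TKO-2i it was above background on all 3 arrays at -2.01 ± 0.14, and in J1-serum on none. Tex101, a germ cell surface protein, was at -0.44 and -0.27 in TKO-serum and at least 8.34-fold lower in J1-2i, but J1-serum also expressed it at -0.94 ± 0.32 and TKO-2i did not reach background. Mael, a piRNA and transposon silencing factor, was at 0.00, -0.11 and 0.13 against 2.45 and 2.59 (-2.51 ± 0.16), with J1-serum highest of all at 3.16 ± 0.13. Mael and Tex101 were therefore higher in serum than in 2i in both lines, whereas among the J1 and TKO groups Asz1 was above background in the TKO line alone. No 3B3-3l array had Asz1 above background. Piwil2, Mov10l1 and Sycp1 were below background in J1-2i and were at least 7.71-fold, 4.71-fold and 2.98-fold lower. The 2 genes higher in J1-2i, chosen after their values were seen, were Stag3, a meiotic cohesin subunit, at 1.30 ± 0.14, and Majin, a telomere attachment protein, at least 2.92-fold. Under normexp background correction Majin differed by 0.96 and was not called. Ctcfl, the testis relative of the insulator protein CTCF, was at 1.43 and 1.16 in TKO-serum and at least 26.2-fold lower in J1-2i.

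The promoter windows below, from 250 bases before to 50 bases after the RefSeq start of the gene (assembly GRCm38.p6, minus strand, written 5′ to 3′ with CpG sites in capitals), are shown because CpG sites are what the deleted enzymes methylate, and because these genes range from many such sites to none. Dazl (chr17:50293571-50293870) holds 28 CpG sites, Asz1 (chr6:18109012-18109311) 17, Magea8 (chrX:154995801-154996100) 10 and Magea5 (chrX:155061504-155061803) 0.
Dazl: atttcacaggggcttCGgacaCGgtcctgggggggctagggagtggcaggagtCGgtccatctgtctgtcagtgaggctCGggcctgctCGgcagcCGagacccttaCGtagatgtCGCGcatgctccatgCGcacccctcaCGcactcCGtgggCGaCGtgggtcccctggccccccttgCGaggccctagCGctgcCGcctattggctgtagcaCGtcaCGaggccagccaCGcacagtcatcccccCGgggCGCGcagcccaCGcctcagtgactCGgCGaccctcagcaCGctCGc
Asz1: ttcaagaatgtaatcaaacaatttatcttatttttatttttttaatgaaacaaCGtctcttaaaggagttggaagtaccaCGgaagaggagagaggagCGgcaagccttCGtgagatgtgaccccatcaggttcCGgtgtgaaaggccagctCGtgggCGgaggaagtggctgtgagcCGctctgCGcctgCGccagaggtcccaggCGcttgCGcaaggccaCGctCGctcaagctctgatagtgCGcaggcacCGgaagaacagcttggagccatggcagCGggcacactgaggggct
Magea8: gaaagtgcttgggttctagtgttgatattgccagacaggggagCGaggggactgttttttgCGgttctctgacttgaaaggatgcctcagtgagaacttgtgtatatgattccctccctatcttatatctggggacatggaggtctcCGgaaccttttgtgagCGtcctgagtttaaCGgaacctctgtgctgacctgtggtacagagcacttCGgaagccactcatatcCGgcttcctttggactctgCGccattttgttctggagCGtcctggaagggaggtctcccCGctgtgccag
Magea5: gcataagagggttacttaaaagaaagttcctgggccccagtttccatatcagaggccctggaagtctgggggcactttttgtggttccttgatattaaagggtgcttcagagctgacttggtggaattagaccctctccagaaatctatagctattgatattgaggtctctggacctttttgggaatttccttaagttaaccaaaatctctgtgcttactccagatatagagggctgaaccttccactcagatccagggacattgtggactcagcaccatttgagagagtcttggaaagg

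The Dazl window holds more CpG sites than the median window and the Asz1 window slightly fewer. Dazl was not called and Asz1 was lower in J1-2i, but other germline genes paired the other way. Mael, with 24 sites, was lower, and Hormad2, with 16, was not called. CpG count and call were not compared across the list. Among the germline genes 25 of 28 had a window, with a median of 20 CpG sites against 19 over all genes with one (11068 of 13882), and none had fewer than 10. An E-box (CACGTG, on either strand) lay in 48% of the germline windows and 11.3% of all windows, and neither Dazl nor Asz1 held one. Genes called higher and lower in J1-2i had medians of 16 and 14.5 CpG sites, and 31.1% and 36.8% of them had fewer than 10, against 22.8% of all genes. The windows of 16 of 18 X-linked Mage, Xlr and Rhox genes had a median of 6.5 CpG sites, and 75% had fewer than 10.

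**Figure D3:**
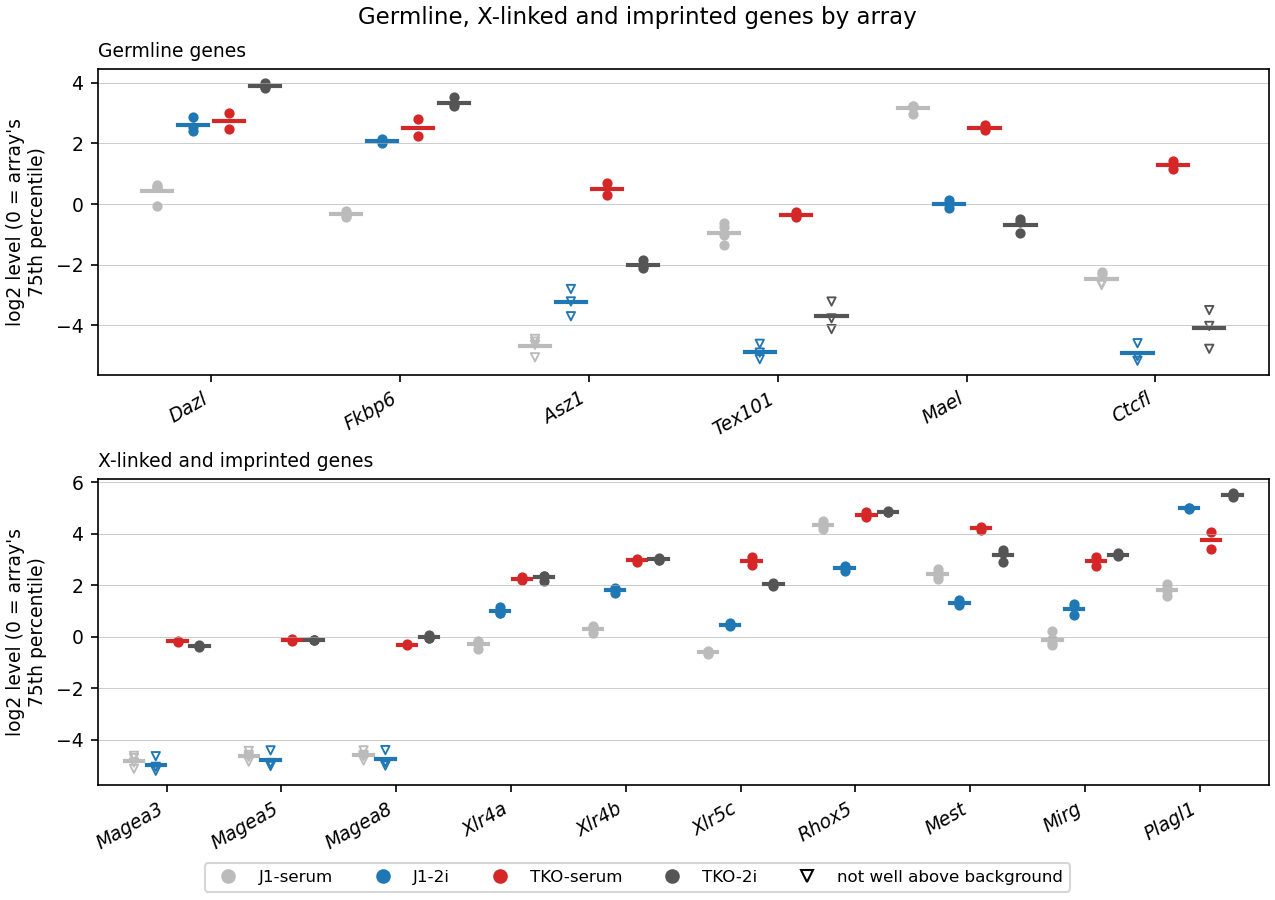
Log2 level on each array (vertical axis, 0 is the array's 75th percentile) for germline genes (upper panel) and X-linked and imprinted genes (lower panel), by 1 probe per gene, in J1-serum, J1-2i, TKO-serum and TKO-2i, with bars at group means and open triangles for spots not well above background. Dazl and Fkbp6 overlap or nearly meet in J1-2i and TKO-serum, while Magea3, Magea5 and Magea8 are above background in the TKO groups alone.

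The X-linked Mage, Xlr and Rhox genes, testis and placenta families in near-identical copies, were the list most often lower in J1-2i among those examined. Of 18 tested, 14 were lower, 1 was higher and 3 were not called, with a median of -2.20. Probes may not separate the copies, so the counts within a family are not independent. Magea5 was at -0.07 and -0.18 in TKO-serum and below background in J1-2i, at least 9.78-fold lower, and Magea3 and Magea8 were at least 9.40-fold and 8.57-fold lower. All 3 were also below background on every J1-serum array and were at -0.37 ± 0.05, -0.13 ± 0.02 and -0.01 ± 0.05 (SD, n = 3) in TKO-2i for Magea3, Magea5 and Magea8. They were thus measured above background only in TKO cells, in either medium, among the J1 and TKO groups. No 3B3-3l array had any of the 3 above background. Rhox10, a homeobox gene of the reproductive cluster, was at 0.56 and 0.90 in TKO-serum and at least 12.7-fold lower, and Rhox13 was at -0.51, -0.60 and -0.51 against 2.12 and 2.32 (-2.76 ± 0.11).

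Some members were expressed in J1-2i at a level between J1-serum and TKO-serum. Xlr4a was at 0.92, 1.16 and 0.91 in J1-2i, at 2.20 and 2.31 in TKO-serum (-1.26 ± 0.14) and at -0.28 ± 0.13 in J1-serum. Xlr4b and Xlr5c, at -1.17 ± 0.12 and -2.48 ± 0.16 against TKO-serum, were likewise above J1-serum, by 1.49 and 1.08. Rhox5, widely used as a methylation-sensitive gene, did not share this order: it was at 2.74, 2.69 and 2.55 in J1-2i, 4.65 and 4.83 in TKO-serum (-2.08 ± 0.11) and 4.35 ± 0.13 in J1-serum. Mageb16 was not called, at 0.28 ± 0.13. The 1 member higher in J1-2i was Rhox1, at least 3.17-fold (adjusted p = 0.022), and its call was lost without J1-2i replicate 3 (adjusted p = 0.05, just over the limit) and without either TKO-serum replicate (0.099 and 0.077). The genes of this paragraph, Mageb16 excepted, were chosen after their values were seen.

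Of 31 imprinted genes tested, 14 were lower, 3 were higher and 14 were not called, with a median of -0.94. Imprinted genes are expressed from 1 parental copy, under the control of differentially methylated regions. Mest, a paternally expressed hydrolase, was at 1.42, 1.30 and 1.23 against 4.17 and 4.26 (-2.90 ± 0.15, adjusted p = 1.3e-08). Peg3, a paternally expressed zinc-finger gene, differed by -2.93 ± 0.27, and Nnat was at least 9.38-fold lower. The J1-2i arrays were below both TKO-serum arrays for all 3. Cdkn1c, a maternally expressed inhibitor of cyclin-dependent kinases, and Dlk1, a paternally expressed Notch-like ligand, differed by -3.96 ± 0.14 and -4.56 ± 0.30, with 2 and 1 of the 3 J1-2i arrays above background. So genes normally expressed from the maternal and from the paternal copy were both among the lower ones. The 3 higher genes were Slc22a18 (2.59 ± 0.18), Dio3 (at least 4.81-fold) and Plagl1, which was at 4.99 ± 0.02 (SD, n = 3) against 4.07 and 3.43 (1.24 ± 0.21). Without TKO-serum replicate 2, Plagl1 differed by 0.92 and was not called. Zrsr1 and Mkrn3 differed by less than 0.1, with 95% intervals within 0.42 of 0. The 3 higher genes and 3 further ones, Mirg, Slc38a4 and Snrpn, were chosen after their values were seen. Mirg, a maternally expressed RNA, was at 1.14, 1.28 and 0.86 in J1-2i, 2.76 and 3.10 in TKO-serum and 3.18 ± 0.06 in TKO-2i. In 3B3-3l Mirg was at 3.35 in serum and 3.12 in 2i. Slc38a4 was lowest in TKO-2i, at -1.04 ± 0.37, against 1.12, 1.22 and 1.49 in J1-2i. Snrpn, at 3.53 ± 0.12 in TKO-2i, was within 2-fold of J1-2i there, although it was lower than TKO-serum by -1.92 ± 0.12.

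Genes of the 2-cell-like state, a rare state of mESC cultures that resembles the early embryo, were lower in J1-2i for 5 of 8 tested and higher for none. Zscan4f was at 1.94, 1.82 and 2.04 against 3.47 and 3.44 (-1.52 ± 0.16, adjusted p = 6.8e-06), with Zscan4c and Zscan4a, near-identical copies, at -1.68 and -1.57. In TKO-2i Zscan4f was not above background on any array, so J1-2i lay below TKO-serum and above TKO-2i. Zfp352 varied between arrays of a group, at 1.73, 0.30 and 0.33 against 2.82 and 1.24, and was not called. In bulk RNA, fewer cells in this state and less RNA per cell cannot be told apart.

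Contractile genes and targets of serum response factor (SRF), which serum activates through actin, were lower in J1-2i. Of 20 tested, 12 were lower and none was higher, with a median of -1.80. Myl9, the myosin light chain of smooth muscle, was at 2.22 and 2.46 in TKO-serum and below background in J1-2i. Acta2, smooth muscle actin, was at -3.07, -2.64 and -3.17 against 1.67 and 1.61 (-4.59 ± 0.23), above background on 2 J1-2i arrays. Tagln, an actin-binding protein, was at -1.19, -1.49 and -1.51 against 2.35 and 2.39 (-3.77 ± 0.25). Cnn1 and Acta1 were at least 17.4-fold and 16.8-fold lower. Actb, cytoplasmic actin, was saturated on all 5 arrays, and Cnn3 differed by -0.04 (-0.26 to 0.18). No gene of this list was called between J1-2i and TKO-2i.

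Of 15 matrix genes tested, 4 were lower and 3 higher. Col4a1 was at 0.87 and 0.51 in TKO-serum and at least 13.3-fold lower in J1-2i, Col18a1 was at -0.81, -1.03 and -0.83 against 3.64 and 3.28 (-4.35 ± 0.16), and Lamb1 and Col4a2 were lower too. Nid1, a linker of basement membranes, was at 4.69, 4.75 and 4.63 against 2.46 and 2.44 (2.24 ± 0.11), and fibronectin (Fn1) and Lamb2 were higher by 1.26 and 1.17. Under normexp background correction Lamb2 differed by 0.99 and was not called. Thus collagen IV and nidogen, partners in the same sheet, ran in opposite directions.

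Markers of other cells moved with these groups. Of 15 fibroblast markers tested, 9 were lower and 1 (Pdgfrb) was higher in J1-2i, with a summed linear level of 2.45 to 2.75 times the 75th percentile in J1-2i, 14.6 to 15.1 in TKO-serum and 62.8 to 75.4 in J1-serum, which grew on feeders. The Pdgfrb call was lost without TKO-serum replicate 2 (adjusted p = 0.082) and under normexp background correction. Acta2 and Tagln are on this list as well. With the filter on dim signal applied to J1-2i and TKO-serum alone, 10 fibroblast markers were left, 9 lower and none higher. Pdgfra, Mmp3 and Ccl2 were below background on all 5 arrays, and Col3a1 was at -1.82, -1.14 and -1.55 against -1.41 and -1.51. Of 11 primitive endoderm markers, 8 were lower and 1 was higher, with summed levels of 1.498 to 1.83 against 5.10 to 6.75. With the filter on these 2 groups alone, 8 primitive endoderm markers were left, 6 lower and 1 higher. Cubn and Gata6 were below background in J1-2i, by at least 6.20-fold and 5.30-fold, and Foxa2 was below background on all 5 arrays. Collagen IV and Lamb1 are also made by primitive endoderm. The part of these cells in the results was not tested.

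Neural genes were lower for 9 of 15 tested and higher for 1, with a median of -1.17. Pax6 was at -0.23 and 0.40 in TKO-serum and at least 11.3-fold lower in J1-2i. Gap43, a growth cone protein, was at -1.21, -1.59 and -1.39 against 2.68 and 2.74 (-4.11 ± 0.16), and Nefh, a neurofilament, was at 0.90, 0.52 and 0.90 against 3.90 and 3.89 (-3.12 ± 0.20). Sox1 and Stmn2 differed by 0.05 and 0.01. Neurog3 ranged from 1.62 to 4.83 within J1-2i, had no usable value on TKO-serum replicate 2 and was not called. The summed neural level, 27.0 to 54.5 in J1-2i and 53.3 to 83.6 in TKO-serum with Neurog3 missing from 1 array, overlapped between the groups. Of 15 trophoblast markers, 6 were lower and 2 higher. Among the lower ones were Plac1, at least 3.38-fold (adjusted p = 7.5e-06), the GATA factor Gata3, at least 2.34-fold (adjusted p = 2.2e-05), and the imprinted gene Ascl2, at -0.60, -0.05 and -0.43 against 1.54 and 1.89 (-2.08 ± 0.17). Of the higher ones, Eomes was at 0.42, 0.52 and 0.75 against -1.82 and -2.42 (2.68 ± 0.22) and Tead4 at 1.89 ± 0.14, while Hand1 and Cdx2 were below background on all 5 arrays. Sfrp1, a secreted Wnt antagonist, was higher by 2.54 ± 0.19.

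In the lipid, betaine and amino acid stress lists, called genes were higher. Of 29 genes of cholesterol and fatty acid synthesis, 9 were higher and none lower, with a median of 0.64. Scd1, which desaturates fatty acids, was at 4.17, 4.08 and 4.09 against 0.62 and 0.71 (3.45 ± 0.15, adjusted p = 3.3e-09), and Cyp51, a sterol demethylase, at 1.80, 1.91 and 1.88 against -0.08 and -0.08 (1.94 ± 0.10). Scd2, Insig1 and Msmo1 were higher by 1.22 to 1.44. Idi1 differed by 0.07 (95% interval -0.13 to 0.27). J1-serum was above TKO-serum for both leading genes, with Scd1 at 3.03 ± 0.17 and Cyp51 at 1.15 ± 0.10 (SD, n = 4).

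Of 14 betaine, methionine and glycine genes, 5 were higher and none lower. Bhmt, which turns homocysteine into methionine with betaine, was at 2.52, 2.64 and 2.63 against -1.75 and -1.72 (4.33 ± 0.22). Dmgdh, the next enzyme of betaine breakdown, was at 2.09, 1.91 and 2.13 against a TKO-serum signal not above background (adjusted p = 3.6e-04). Its SE was 1.11, and 1 J1-serum array in the shared model stood apart at 0.33 from the others at -4.71 to -4.40. Bhmt2, above background on 1 of 2 TKO-serum arrays, differed by 3.80 ± 0.49, and Amt, of the glycine cleavage system, was higher by 1.38. In TKO-2i Bhmt stood at 2.95 ± 0.09 and Dmgdh at 2.50 ± 0.13, and neither was called against J1-2i.

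Of 18 genes of the amino acid stress response and serine synthesis, 6 were higher and none lower. Chac1, which breaks down glutathione, was at 4.64, 4.54 and 4.58 against 2.96 and 3.37 (1.43 ± 0.19), and Ddit3 and Trib3, stress regulators, differed by 2.19 ± 0.24 and 1.90 ± 0.15. Vldlr was higher by 2.90 ± 0.25. Phgdh and Shmt2, enzymes of serine synthesis and use, differed by 0.28 and 0.17 and were not called. Chac1 was also 1.44 above TKO-2i (adjusted p = 5.1e-05), whose mean of 3.15 ± 0.21 lay at the TKO-serum level.

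Of 16 hypoxia and glycolysis genes, 4 were higher (Vegfa, Ndufa4l2, Pfkp and Car9) and Ankrd37 was lower. Vegfa, the vascular growth factor, was at 1.99, 2.13 and 2.30 against 0.42 and 0.42 (1.72 ± 0.11). Car9 was above background on 1 J1-2i array and no TKO-serum array, and its call was lost without TKO-serum replicate 1 and under normexp background correction. Ndufa4l2 was at 1.84, 1.86 and 1.99 against 0.35 and 0.20 (1.62 ± 0.23), with J1-serum at 3.36 ± 0.42 and TKO-2i at -1.85 ± 0.12. The 2 J1 groups were therefore above the 2 TKO groups for this gene. They were also above 3B3-3l, at -1.65 in serum and -0.07 in 2i. Eno1 and Pgam1 were saturated on several arrays, which limits what their small differences show. Pygl, liver glycogen phosphorylase, was at 0.02, 0.29 and 0.51 in J1-2i and not above background in TKO-serum (at least 12.9-fold higher), and it was at 0.70 ± 0.03 in J1-serum and not above background in TKO-2i, so of these 4 groups the J1 groups alone had it above background. In 3B3-3l Pygl was at -2.01 in serum and -1.73 in 2i, below both J1 groups.

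Interferon and antigen presentation genes were split, with 3 of 15 higher and 5 lower. Xaf1, an apoptosis cofactor induced by interferon, was at 3.62, 3.39 and 3.47 against -0.11 and -0.40 (3.75 ± 0.11, adjusted p = 3.6e-10), and Oas1a and Stat2 were higher by 1.48 and 1.38. Psmb8, a subunit of the immunoproteasome, and Gbp2, a guanylate-binding protein, were below background in J1-2i and were at least 6.07-fold and 8.47-fold lower. Tap1, Ifit2 and Isg15 were the other lower genes, but the Ifit2 call was lost without J1-2i replicate 1, and the Isg15 call without J1-2i replicate 2 or 3 and without either TKO-serum replicate. Irf1 differed by -0.01 (-0.28 to 0.26). Xaf1 stood at 3.65 ± 0.03 in TKO-2i, at the J1-2i level.

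Regulators of the G1 phase differed in both directions, 5 higher and 4 lower of 14 tested. Cyclin D2 (Ccnd2) was at 1.99 and 2.35 in TKO-serum and below background in J1-2i, and cyclin E1 (Ccne1) was at 3.64, 3.57 and 3.46 against 5.07 and 5.11 (-1.53 ± 0.11). The inhibitor genes Cdkn2a, at 3.67, 3.67 and 3.64 against 1.75 and 2.20 (1.69 ± 0.13), Cdkn1a (1.33), Cdkn2c (at least 3.06-fold) and Cdkn1b (1.07) were higher, and Cdkn1c was lower. The Cdkn1b call was lost without TKO-serum replicate 2, at 0.56 (adjusted p = 0.12). Of the retinoblastoma family, Rbl1 was higher at 1.84 ± 0.13 and Rb1 lower at -1.42 ± 0.16. Cdk4 and Ccnd3 differed by less than 0.1.

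Hox genes, the developmental clusters that Polycomb holds silent in mESCs, were mostly higher in J1-2i among those tested. Of 27 listed, 15 were tested, with 9 higher and 1 lower. Their median of 1.72 covers only members that passed the filter on dim signal, 8 of which were above background on no TKO-serum array, and without that filter the median over all 27 was 0.22, with 9 higher and 2 lower. Hoxc4 was at 1.29, 1.15 and 1.24 against -3.23 and -3.16, and Hoxb13 at -1.24, -1.10 and -1.11 against -4.84 and -5.03, at least 5.27-fold higher. Hoxc13 was measured above background on all 5 arrays and differed by 1.59 ± 0.14, from -1.49 and -1.48 to 0.12, 0.03 and 0.17. Hoxb2 was the lower gene, at least 3.61-fold. Only 7 of the 15 were above background on both TKO-serum arrays, so most of these differences rest on signal against background, and Hoxc9, 1 of the 9, was below background on all 5 arrays. Hoxc4 stood at 1.42 ± 0.07 in TKO-2i, at the J1-2i level. The other 12 listed Hox genes, Hoxc11 and Hoxc12 among them, were not tested, since none of their probes passed the filter on dim signal.

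By chromosome, the X chromosome held the largest share of lower genes among chromosomes with over 10 genes, with 21.4% of 538 genes lower and 9.48% higher, against 12.3% and 10.3% of all genes. Chromosome 14 followed with 17.0% lower. Chromosome 8 held the largest share of higher genes, 14.6% of 739, with a median difference of 0.16. The median level of its genes relative to each gene's mean was 0.09, 0.04 and 0.02 on the J1-2i arrays and -0.12 and -0.12 on the TKO-serum arrays, so the shift was on both TKO-serum arrays. On the TKO-2i arrays it lay between -0.05 and -0.04. Copy number was not measured.

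The lists were also set beside J1-2i minus TKO-2i, where the medium is the same and the line differs. Both comparisons use the J1-2i arrays. Between J1-2i and TKO-2i, 7.34% of genes were called, 3.55% higher and 3.79% lower. Of the 18 X-linked Mage, Xlr and Rhox genes, 11 were lower there and 1 was higher, with a median of -1.36. Of the 11 Wnt targets 7 were lower and none higher, with Sp5 at -3.20 (adjusted p = 6.3e-08) and Cdx1 at -1.33. Of the 16 primed genes 3 were lower and 1 higher, of the 31 imprinted genes 5 were lower and 3 higher, and of the 28 germline genes 4 were lower and 3 higher. Lipid, betaine, interferon and SRF lists had no gene called there. The 2-cell-like genes ran the other way, with 4 of 8 higher in J1-2i than in TKO-2i and none lower, and of the 16 hypoxia and glycolysis genes 6 were higher and none lower. Between TKO-2i and TKO-serum, the same line in 2 media, 15.8% of genes were called, 6.72% higher and 9.07% lower. There 12 primed genes, 11 ERK genes and 11 SRF genes were lower in 2i, 9 lipid genes were higher, and 4 of the X-linked genes were lower and none higher. Of the germline genes 14 were lower and 2 higher, of the imprinted genes 12 lower and 3 higher, of the Wnt targets 2 lower and 6 higher, and of the 15 Hox genes 1 lower and 11 higher. Against J1-serum, which both groups share as a reference and which grew on feeders, 22.7% of genes were called in J1-2i (10.1% higher, 12.6% lower) and 16.5% in TKO-serum (7.76% higher, 8.74% lower). The X-linked Mage, Xlr and Rhox list had 6 members above J1-serum and 5 below it in J1-2i, against 15 above and none below in TKO-serum. The germline list had 8 members above J1-serum and 14 below it in J1-2i, against 9 above and 3 below in TKO-serum. Of the 15 fibroblast markers, 15 were lower in J1-2i and 13 in TKO-serum, and their part in these counts was not tested. All 15 were above background on every J1-serum array, and some were tested only through groups other than J1-2i and TKO-serum. The filter on dim signal therefore favoured markers that are high in J1-serum.

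**Figure D4:**
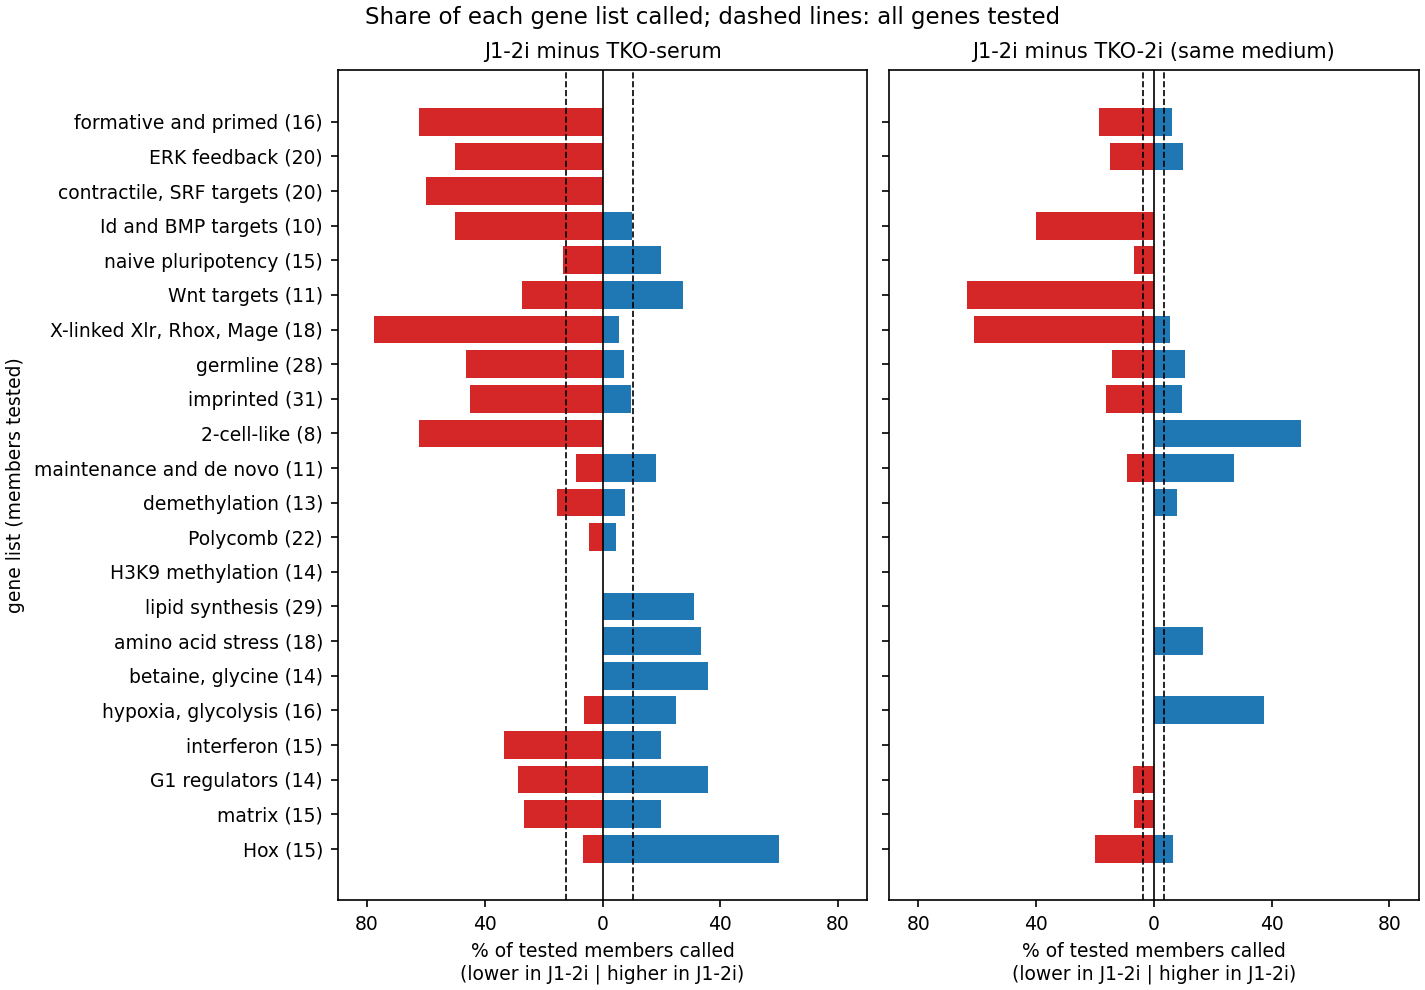
Percent of the tested members of each gene list called lower (red, left) and higher (blue, right) in J1-2i against TKO-serum (left panel) and against TKO-2i (right panel), with the number tested in brackets. Dashed lines give the shares over all genes, 12.3% and 10.3% on the left and 3.79% and 3.55% on the right. The X-linked list reaches past the line for lower genes in both panels, the SRF list does so on the left alone, and the lipid and betaine lists pass the line for higher genes on the left alone.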

How the data were processed

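RNA of 16 arrays in 6 groups was measured on one-colour Agilent arrays, with 62976 spots each. The authors scanned the arrays and extracted the spots with Agilent Feature Extraction 11.5.1.1, and the deposited scanner files hold background-subtracted intensity per spot. The authors also deposited a table of normalized log2 values for 30170 probes, used here as an alternative only. In 13 of its 16 columns the values matched another replicate of the same group best.

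From the processed intensity, outlier spots and controls were left out, log2 was taken, the 75th percentile of each array was subtracted, and replicate spots were averaged per probe. Testing required that at least 1 group had the probe above background on all its arrays, by at least 50% of the spots. That left 27028 probes, of which 9214 carry no gene name, and 13883 genes. A single limma model (limma 3.58.1, R 4.3.3) held the 6 group means of all 16 arrays, with two-sided p values adjusted over all tested probes by Benjamini-Hochberg. It was tested on simulated data. For a gene, the probe with the highest mean was used, and the number of arrays limits the precision.

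Genes were named by a rule. They are the 12 largest differences and 8 largest bounds in each direction, 31 genes the study names, and per list the 6 largest differences and 3 values nearest 0. Genes outside it were chosen after their values were seen (Stag3, Majin, Xlr4a, Xlr4b, Xlr5c, Rhox1, Rhox5, Plagl1, Dio3, Slc22a18, Snrpn, Mirg, Slc38a4, Etv4, Lamb2, Ifit2, Isg15, Pdgfra, Pdgfrb, Ccl2, Cdkn1a, Cdkn1b, Rb1). The groups compared and the gene lists were chosen with earlier results of these data known. Alternatives covered background correction, scaling, filters, slide, replicates, test and thresholds. Some genes that were tested and counted are not reported here by name.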

Additional observations from a re-analysis of the deposited data

Results flagged for a closer look

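Only a set of genes picked for comparison between groups was examined here, so the counts give no share over all genes. For 4 of them the difference between 2i and serum had opposite signs in the lines, on every array, and the difference between the lines was not tested. Etv4, an ETS factor of the ERK list, was lower in 2i in J1 (-1.27), and its value in TKO was 0.50 (limma adjusted p = 0.016), inside the 2-fold limit. Asz1 was higher in 2i in J1 (1.43), although neither J1 group was above background, and lower in TKO (-2.50). Xlr5c was higher in 2i in J1 (1.08), and its value in TKO was -0.91 (limma adjusted p = 8.3e-04), inside the 2-fold limit. Rhox5 was lower in 2i in J1 (-1.69), and its value in TKO was 0.12 (limma adjusted p = 0.44), not called.

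Among the J1-serum arrays, 3 values of the picked genes stood apart from the other 3 arrays. Replicate 1 was on slide 2 and was scanned on another day than the other 3, with 2.20% of spots marked as outliers against 0.46% to 0.94%, and the part of this in its values was not tested. Dazl was at -0.06175 on replicate 1 against 0.55 to 0.62. Dmgdh was at 0.33 on replicate 1 against -4.71 to -4.40. Ly6c1 was at 0.45 on replicate 4 against 0.83 to 0.89. Chance alone marks about 1 in 20 groups this way, and groups of 2 or 3 arrays, J1-2i and TKO-serum among them, were not examined for it.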

How the results depend on the processing

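The count of genes called, 3505 (1588 higher, 1935 lower), moved by over 1.5 times in 2 alternatives. It was 1630 (971 and 661) when probes had to be well above background on all 16 arrays, which leaves out genes below background in 1 group, and 7384 (3872 and 3595) without the fold limit. With the replicate block it was 3474 (1604 higher, 1887 lower). Same-numbered arrays had deviations correlated at 0.05 and 0.10 over 2 pairs. The deviations of 2 TKO-serum arrays mirror each other, so this cannot decide whether the numbers mark pairs. Leaving out 1 array gave 3245 to 3505. The median over all genes was 0.15 under array median scaling against 0.03, and 52.8% of called genes were higher there against 45.1%, with 59.5% under the filter on all 16 arrays.

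List counts also moved. Without the fold limit they were amino acid 11, betaine 9, demethylation 11, ERK 16, H3K9 5, hypoxia 8, lipid 22, methyltransferases 7, naive 9, Polycomb 12 and readers 4. With all 16 arrays above background, where 10132 genes kept their brightest probe and fewer members were tested, they were betaine 2 of 10, ERK 4 of 12, fibroblast 1 of 2, germline 5 of 17, Hox 0 of 2, Id 3 of 6, imprinted 10 of 19, interferon 3 of 10, neural 4 of 9, primed 4 of 10, readers 1 of 6, SRF 6 of 14, trophoblast 4 of 6, 2-cell 2 of 3, Wnt 2 of 5 and X-linked 5 of 7. The authors' table gave interferon 5 of 13, 2-cell 3 of 4 against 5 of 8, and X-linked 9 of 10 against 15 of 18. Normexp gave interferon 5, neural 6 and readers 1. Methyltransferases were 5 under median scaling and within the slide, where readers were 1, as with the replicate block. Leaving out 1 array gave 3 to 5 for methyltransferases, 1 to 3 for readers (3, of them 1 lower, without TKO-serum replicate 2), 3 to 5 for demethylation and 0 to 1 for H3K9. The cause was not tested.

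No call of a named gene changed direction, and changes of sign in differences that were not called were not counted. Of 4597 values of 272 genes, 4495 kept their side of the threshold. The Klf4, Slc7a5, Plagl1, Pdgfrb and Cdkn1b calls were lost without TKO-serum replicate 2, Car9 without TKO-serum replicate 1, and Rhox1 and Isg15 without either. A t-test with pooled variance on the 5 arrays also lost Car9, Pdgfrb and Cdkn1b, among others, with p adjusted or not. With p adjusted it lost more, Bhmt2 (adjusted p = 0.057) and Slc7a5 (adjusted p = 0.077) among them. The Sall4 and Nog calls were lost in several alternatives. Normexp shrank differences of dim genes, such as Magea3 from -4.79 to -3.09. Magea3 was below background in J1-2i, so neither value is exact.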
